A study of Mus musculus with 6 samples.

Results

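A set of 9 genes of the B cell programme was followed by name across 6 single-cell libraries: the transcription factors Ebf1 and Pax5, the coactivator Pou2af1, the adaptor Blnk, the surrogate light chain genes Vpreb1 and Igll1 with the related Vpreb3, and the receptor signalling chains Cd79a and Cd79b. They are 9 of the 18011 gene symbols in the count tables, and all 9 were found, as EBF1, PAX5, POU2AF1, BLNK, VPREB1, VPREB3, IGLL1, CD79A and CD79B; mouse-style symbols are used below. The set is defined by gene names, with no threshold on a measured value, but it was drawn up with earlier results of these data known. The cells were lineage-negative haematopoietic stem and progenitor cells (Lin- HSPC, cells left after those bearing surface markers of mature blood lineages are set aside) of 6 mice, 3 of them Stag2 KO (samples KO1, KO2, KO3) and the other 3 Stag2 wt (samples WT1, WT2, WT3). Stag2 is one of the subunits of cohesin, a ring complex that folds chromatin into loops. The strain, age and sex of the mice, the allele, any Cre driver and the tissue were not given in the sources used here. Sample numbers are names only, and values are listed in the order 1, 2, 3 with the knockout first.

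B cell development starts from lymphoid progenitors in which Ebf1, and after it Pax5, switch on the genes of the B lineage. A pro-B cell that has rearranged its heavy chain carries it to the surface with a stand-in light chain built from the Vpreb1 and Igll1 products; this pre-B receptor signals through the Cd79a and Cd79b chains and the adaptor Blnk, drives a burst of division and is then shut off. Pou2af1 is a coactivator that octamer-binding factors bring to DNA, and Vpreb3 encodes an endoplasmic reticulum protein that binds immunoglobulin chains.

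Positions below are those of GENCODE release M21 on GRCm38; the labels give no build for the counts. Ebf1 lies at chr11:44617317-45008091 on the plus strand, Pax5 at chr4:44524757-44710487 on the minus strand, Pou2af1 at chr9:51213708-51240080 on the plus strand and Blnk at chr19:40928927-40994535 on the minus strand. Vpreb1 (chr16:16868403-16870843) and Igll1 (chr16:16860671-16863985) are neighbours on the minus strand, Vpreb3 is at chr10:75943057-75949657 on the plus strand, Cd79a at chr7:24897381-24902197 on the plus strand and Cd79b at chr11:106311341-106314762 on the minus strand. Vpreb1 overlaps an exon of Top3b on the opposite strand (chr16:16870736-16870843), and it has a near-identical copy, Vpreb2 (chr16:17980428-17981273). Whether the counting used strand or split reads between such copies is not given, so the Vpreb1 values carry that uncertainty.

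Promoters of the 3 members with a match to one of the motifs searched are shown because B lineage factors are known to act through promoters of such genes. They are the bases before the start site that lie outside annotated exons, from the RefSeq promoter table (GRCm38.p6), which held windows for 8 of the 9 members. After this cut the Blnk window and the first Ebf1 window had no bases left to search, and the Vpreb1 window had 43. Capitals mark the octamer ATTTGCAT in Vpreb3, the EBF half-site pair CCCAGGGG and the E-box CACCTG in Igll1, and the E-box CAGGTG in Cd79a. The searched letters were ATGCAAAT, CCCNNGGG and CAGGTG, on both strands, and no match overlapped another.
Vpreb3 (chr10:75948050-75948299, plus strand): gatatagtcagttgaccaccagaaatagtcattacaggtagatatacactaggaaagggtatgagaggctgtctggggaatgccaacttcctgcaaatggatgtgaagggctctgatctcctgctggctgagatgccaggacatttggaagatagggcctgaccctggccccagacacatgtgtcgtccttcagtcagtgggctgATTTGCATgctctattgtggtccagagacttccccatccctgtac
Igll1 (chr16:16863986-16864235, minus strand): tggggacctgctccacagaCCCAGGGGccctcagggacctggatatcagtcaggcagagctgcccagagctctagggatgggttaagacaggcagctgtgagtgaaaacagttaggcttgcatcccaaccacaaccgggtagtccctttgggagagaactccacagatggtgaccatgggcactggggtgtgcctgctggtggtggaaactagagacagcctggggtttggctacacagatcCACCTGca
Cd79a (chr7:24897247-24897380, plus strand): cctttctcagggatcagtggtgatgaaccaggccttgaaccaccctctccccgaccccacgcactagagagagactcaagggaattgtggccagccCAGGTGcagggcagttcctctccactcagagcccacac
The Vpreb3 octamer starts 45 bases before the start site. Of 32851 promoter windows of 300 bases in the table, 1.74% held the octamer, 13.7% the EBF half-site pair and 20.2% the E-box, so a match describes the letters and is not a binding site. The members' searched stretches were shorter, at most 250 bases, so these shares are not matched to them in length.

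The libraries held 2604 to 7053 deposited cells each, and 23416 cells were kept in all. The median depth of kept cells was 5946, 5731 and 5906 UMIs (unique molecular identifiers, each marking a captured transcript) in the knockout against 4303, 4876.5 and 3487 in the wild type samples, so the wild type libraries were shallower per cell. Stag2 itself was at 25.2, 23.6 and 20.1 CPM (UMIs of a gene per 1000000 UMIs of the cells summed) in the knockout against 53.4, 43.0 and 42.8 CPM in the wild type samples, a change of -1.04 ± 0.12 on the log2 scale (SE; edgeR, adjusted p = 0.000583). The titles of the 3 knockout samples and WT1 share a prefix (XA) whose meaning the labels do not give, so WT1 is the only wild type sample with it. Libraries shared 11 to 48 cell barcodes in pairs, and none of the 357 cells with an Ebf1 UMI shared its barcode with such a cell of another library. Cells were clustered and classes were named from marker lists that hold none of the 9 genes; since 8 of the 9 (all except Vpreb1) were among the clustering genes, levels by class are given as a description.

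In which cells were the genes found? In the wild type samples, Ebf1, Pax5, Pou2af1, Vpreb3 and Cd79a sat mainly in one small class, the B cell-like cells, which held 89.7%, 92.0%, 84.4%, 92.5% and 89.5% of their UMIs. In wild type samples 236 cells fell in that class, and in knockout samples 8 did. Igll1, Cd79b, Vpreb1 and Blnk were spread more widely, with 49.5%, 37.7%, 28.2% and 21.7% of their wild type UMIs in the B cell-like class. The largest part of the Blnk UMIs, 42.4% in wild type and 68.1% in knockout, came from plasmacytoid dendritic cell-like cells, interferon-producing cells that share several genes with B cells. In the knockout samples 56.3% of the Ebf1 UMIs came from lymphoid progenitor-like cells and 35.7% from the 8 B cell-like cells.

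**Figure D1:**
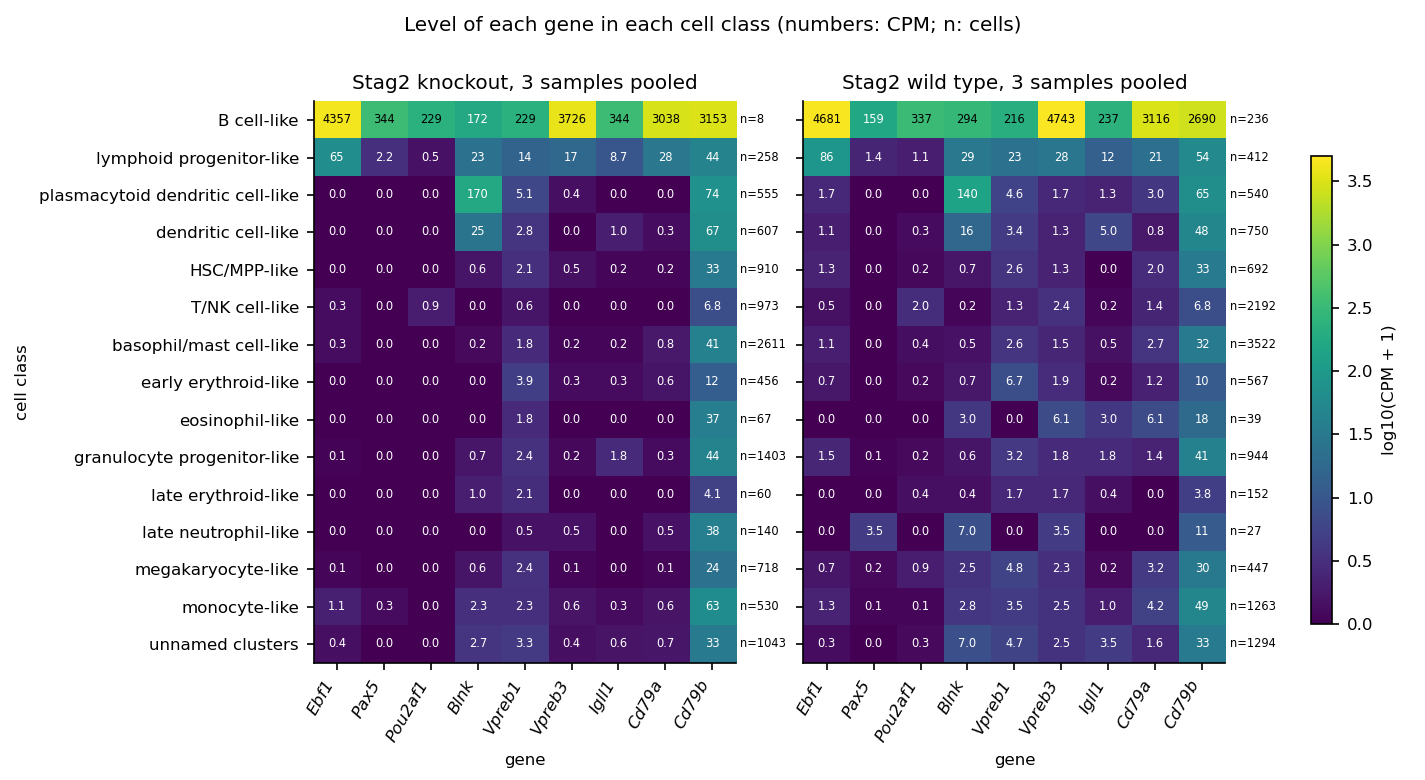
Level of each gene (columns, CPM) in each cell class (rows), with the 3 knockout samples pooled on the left and the 3 wild type samples on the right; colour is log10(CPM + 1) and n is the number of cells. The B cell-like row is high in both genotypes but holds 8 knockout cells against 236 wild type cells, and Blnk and Cd79b also have levels outside it.

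B cell-like cells numbered 2, 1 and 5 in the knockout against 58, 72 and 106 in the wild type samples. This was 0.0752% ± 0.0539 of kept cells in the knockout and 1.92% ± 0.423 in the wild type samples (SD, n = 3 each; 2-sided exact permutation p = 0.1, the smallest that 3 against 3 samples allow). Every wild type sample lay above every knockout sample. Clustering without the B lineage genes gave 2, 1 and 5 against 58, 70 and 102 such cells, and 238 cells were in the class both times.

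The few knockout B cell-like cells carried these genes as well. Pooled over samples, Ebf1 was at 4357 CPM in the knockout and 4681 CPM in the wild type B cell-like cells, Cd79a at 3038 and 3116 CPM, Vpreb3 at 3726 and 4743 CPM, and Cd79b at 3153 and 2690 CPM. Pax5, at 344 and 159 CPM, and Igll1, at 344 and 237 CPM, rest on few UMIs, since Pax5 had 6 UMIs in the 8 knockout cells. Pou2af1 was at 0, 0 and 373 CPM in KO1, KO2 and KO3, on 4 UMIs, against 278, 357 and 354 CPM in the wild type samples. Blnk had 3 and Vpreb1 4 UMIs in the knockout cells. KO3 held 5 of the 8 cells and 5 of the 6 Pax5 UMIs, so pooled knockout values lean on KO3. All members except Vpreb1 were clustering genes, so their presence describes the class. With 8 cells no test was made within the class. In the wild type class 97.2% to 98.6% of the cells of a sample had an Ebf1 UMI, against 28.3% to 36.1% with Pax5 and 44.8% to 58.3% with Pou2af1, at a median of 1592 to 2361 UMIs per cell.

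Over all kept cells, each of the 9 genes was lower in the Stag2 knockout than in the wild type samples, by the test across all genes (edgeR quasi-likelihood on counts summed per sample, Benjamini-Hochberg adjusted p under 0.05). This was 9 of 9 genes, where 7.19% of the 12641 genes tested were called lower and 10.9% in either direction. The median log2 fold change of the 9 was -3.30, against 0.01 over all genes tested. In summed cells, fewer cells of a type and less RNA per cell cannot be told apart. The genotypes did not overlap for any of the 9 genes, which held for 30.4% of all genes tested in either direction and for 13.2% with the knockout lower. Without KO3, the knockout sample with the most B cell-like cells, Pax5, Vpreb3 and Cd79a were at -4.10, -5.87 and -4.72, further from 0 than with it.

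Markers of other cell types also differed between the genotypes over all kept cells. Lower in the knockout were 8 of 12 T/NK cell, 6 of 8 plasma cell, 9 of 11 tested dendritic cell and 9 of 12 early erythroid markers. Higher were 9 of 12 late neutrophil, 10 of 12 granulocyte progenitor and 10 of 12 megakaryocyte markers, with 1 megakaryocyte marker lower. Of all 12641 genes tested, 909 were lower and 468 higher (edgeR, adjusted p under 0.05 throughout). The late neutrophil genes summed to 4865 to 7881 CPM in the knockout against 673 to 2271 CPM in the wild type samples, and the T/NK cell genes to 1041 to 1224 CPM against 1241 to 1494 CPM, with none of either list at 0. Their part in the members' values was not tested.

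Of the factors, Ebf1 was at 2.42, 1.28 and 3.66 CPM in the knockout against 61.4, 34.5 and 32.4 CPM in the wild type samples. WT1 was the highest and KO2 the lowest, and the genotypes were far apart (log2 fold change -4.09 ± 0.33 (SE), edgeR adjusted p = 0.000136). Pax5, which commits cells to the B lineage, was at 0.06, 0.10 and 0.24 CPM against 1.74, 1.12 and 1.24 CPM (log2 fold change -3.30 ± 0.45 by edgeR, adjusted p = 0.00164). Pou2af1 was at 0.12, 0 and 0.14 CPM against 3.47, 2.84 and 2.88 CPM (log2 fold change -4.95 ± 0.40, edgeR adjusted p = 0.000136). KO2 had no Pou2af1 UMI in 2385 cells, which allows a share of cells with such a UMI of up to 0.126% and sets no limit on cells that express the gene.

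Vpreb3, related to the surrogate light chain genes, was at 1.05, 0.15 and 2.72 CPM in the knockout and 54.7, 36.2 and 32.5 CPM in the wild type samples (log2 fold change -4.89 ± 0.42, edgeR adjusted p = 0.000178). Of the 2 surrogate light chain genes, Igll1 was at 0.76, 0.72 and 1.32 CPM against 5.53, 2.40 and 3.72 CPM, a smaller change of -2.04 ± 0.35 on the log2 scale (edgeR, adjusted p = 0.00512). Vpreb1 was at 2.60, 1.75 and 3.59 CPM against 9.64, 4.23 and 5.24 CPM (log2 fold change -1.23 ± 0.33, edgeR adjusted p = 0.0389). For Vpreb1 the gap between KO3 and WT2 was narrow, and its call was lost without KO1, KO2, WT1 or WT3, where the edgeR adjusted p was 0.127, 0.0679, 0.0631 and 0.0648.

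Of the signalling genes, Cd79a was at 1.08, 0.98 and 2.82 CPM in the knockout and 32.7, 25.3 and 23.5 CPM in the wild type samples (log2 fold change -4.06 ± 0.29, edgeR adjusted p = 6.5e-05). Cd79b was at 37.1, 37.3 and 42.3 CPM against 55.3, 57.5 and 48.7 CPM, a change of -0.50 ± 0.08 (edgeR, adjusted p = 0.00417), and among cells with at least 2000 UMIs it was -0.27 with adjusted p = 0.170. Blnk was at 6.92, 7.91 and 6.79 CPM against 13.1, 10.5 and 8.34 CPM (log2 fold change -0.58 ± 0.16, edgeR adjusted p = 0.0449). The Blnk samples KO2 and WT3 nearly met, and the call was lost without KO1, KO3, WT1 or WT2 (edgeR adjusted p 0.148, 0.141, 0.0830 and 0.107) and among cells with at least 2000 UMIs (0.0997). Wild type B cell-like cells had medians of 1592 to 2361 UMIs, so the cut at 2000 UMIs also left out many of them.

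**Figure D2:**
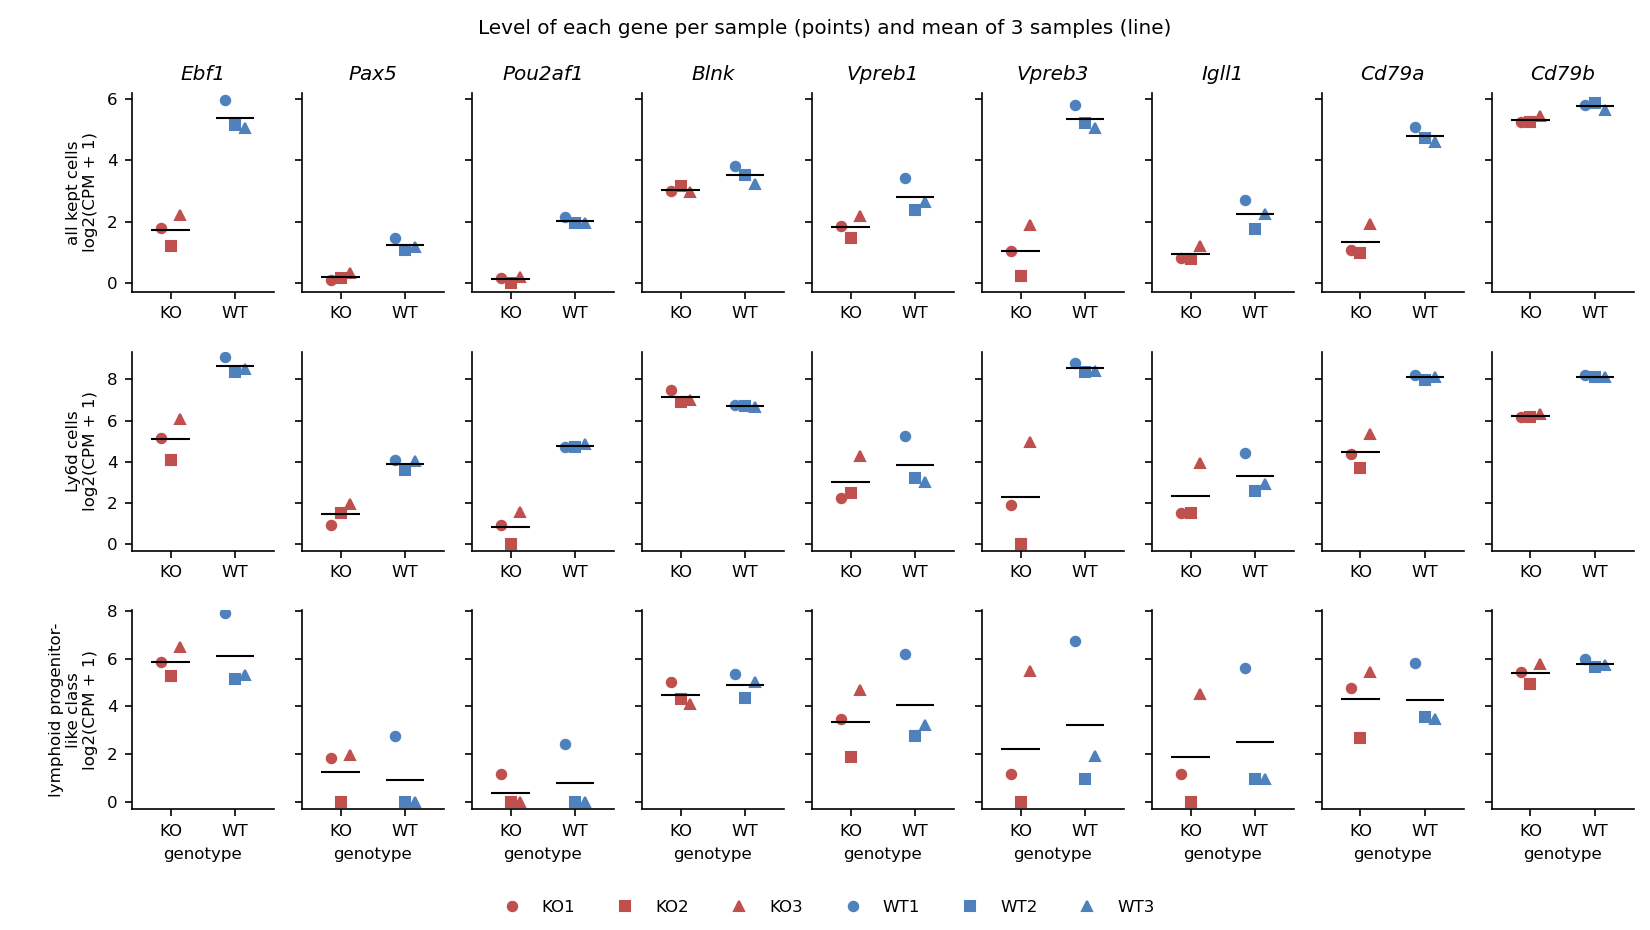
Level of each gene in each sample as log2(CPM + 1), with knockout samples in red and wild type samples in blue, marker shape for the sample number and a line at the mean of 3 samples, in all kept cells (top), Ly6d cells (middle) and the lymphoid progenitor-like class (bottom). In the bottom row the genotypes overlap and WT1 is the highest sample for all 9 genes.

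With the B cell-like class set aside, a step added after the data were seen, 1 of the 7 genes that could still be tested was called, where 6.68% of 12622 genes were called lower and 10.1% in either direction. That gene was Cd79a, at -1.58 ± 0.39 on the log2 scale (edgeR, adjusted p = 0.0310). Ebf1 was at -1.61 ± 0.63 (edgeR adjusted p = 0.149), Vpreb3 at -2.53 ± 0.79 (0.0760), Igll1 at -1.26 ± 0.47 (0.136) and Vpreb1 at -0.82 ± 0.37 (0.207). Blnk was at -0.25 ± 0.17 (0.421), and Cd79b had the opposite sign, 0.18 ± 0.09 (0.240). Pax5 and Pou2af1 had too few counts left to test. The class set aside was clustered partly on members and held most wild type UMIs of several. Smaller differences without it were largely set in advance, so these values describe the cells left.

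UMIs of the members were also counted in T/NK cell-like cells, which are not of the B lineage. They had a Vpreb3 UMI in 1.24%, 0.585% and 0.487% of cells of the wild type samples and in 0 of 411, 316 and 246 cells of the knockout ones, at medians of 2280 to 3308 UMIs in the wild type and 2968 to 3249 UMIs in the knockout samples. No such cell had more than 1 Vpreb3 UMI. Cd79a was likewise found there, in 0.830%, 0.146% and 0.390% of the wild type and 0 of the knockout T/NK cell-like cells. For Vpreb3 and Cd79a the wild type libraries thus had the higher shares in these cells. Ebf1 had 1, 0 and 0 UMIs there in the knockout and 0, 0 and 3 in the wild type samples. Vpreb1 and Pou2af1 levels there also overlapped between genotypes. Whether such UMIs are background, and what part they have in the differences outside the B cell-like class, was not tested.

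**Figure D3:**
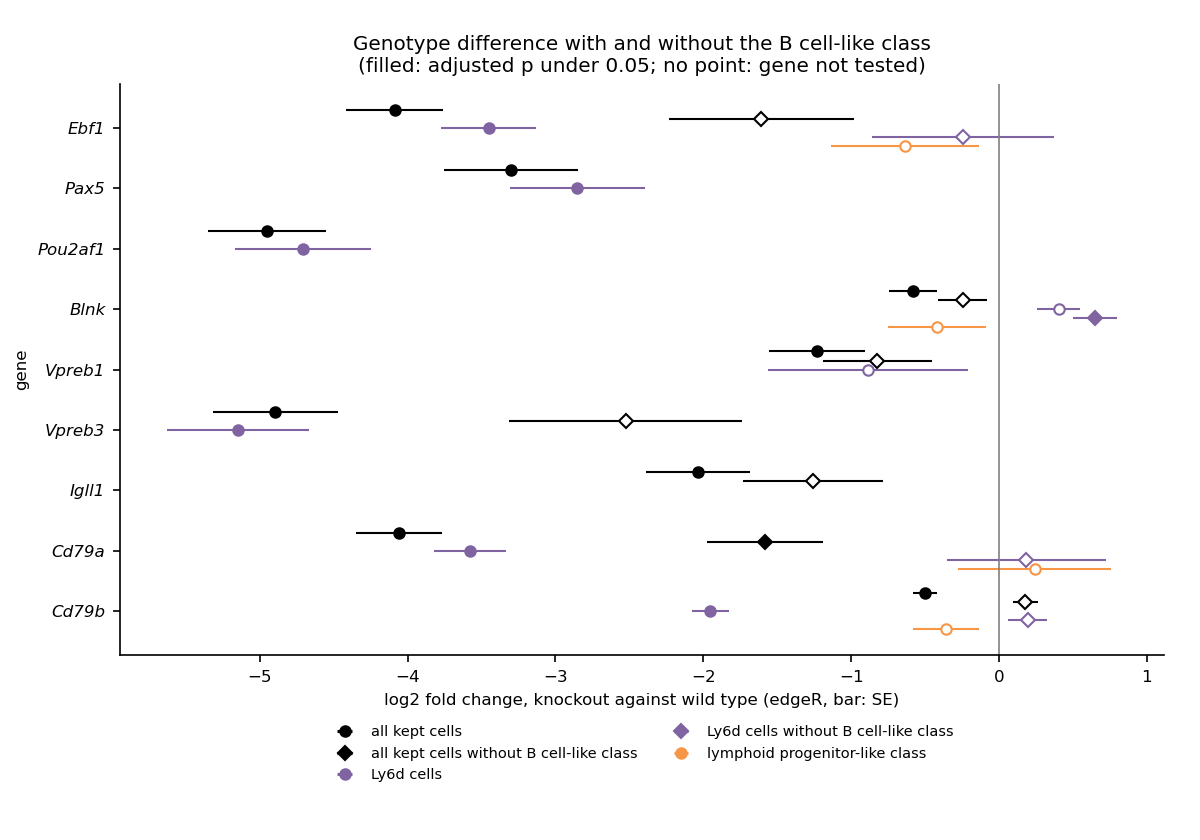
Log2 fold change of each gene, knockout against wild type, with its SE (edgeR), in all kept cells (black), Ly6d cells (purple) and the lymphoid progenitor-like class (orange); diamonds leave out the B cell-like class, filled symbols passed an adjusted p of 0.05 and genes too low to test have no symbol. Without the B cell-like class the values of Ebf1 and Cd79a lie closer to 0, and in that class-free Ly6d set Blnk lies above 0.

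The next question was whether the genes differed in Ly6d cells, defined as kept cells with at least 2 UMIs of Ly6d, a surface marker of lymphoid progenitors that also marks plasmacytoid dendritic cells and B cells. The knockout samples had 234, 200 and 219 such cells, against 255, 410 and 446 for the wild type. That was 6.61% ± 1.57 of kept cells in the knockout and 9.05% ± 1.87 in the wild type samples (SD, n = 3 each; exact permutation p = 0.2), with KO2 above WT3. After thinning each cell to 2000 UMIs and taking cells with at least 1 Ly6d UMI it was 7.76% ± 1.92 against 11% ± 1.06 (exact permutation p = 0.2). Here and below, thinning leaves out cells with fewer UMIs than the number thinned to.

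The data went against reading these cells as lymphoid progenitors. Lymphoid progenitor-like cells made up 4.53% ± 2.10 of the Ly6d cells in the knockout and 7.15% ± 2.25 in the wild type samples (SD, n = 3). Plasmacytoid dendritic cell-like cells made up 78.6% ± 2.03 and 46.1% ± 4.56, and B cell-like cells 0.614% ± 0.262 and 17.3% ± 2.36; for both of these the genotypes did not overlap (exact permutation p = 0.1). The 12 plasmacytoid dendritic cell markers summed to 15898 to 18505 CPM in knockout and 11051 to 14368 CPM in wild type Ly6d cells. None of the 12 was at 0. Ly6d, the gate gene, is in this list and in the lymphoid progenitor list, so the sum is in part fixed by the gate. The 12 B cell markers summed to 1773 to 1966 CPM and 1971 to 2231 CPM, with none at 0. KO2 stood apart in late neutrophil markers, at 6437 CPM against 51.8 to 249 CPM in the other samples.

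**Figure D4:**
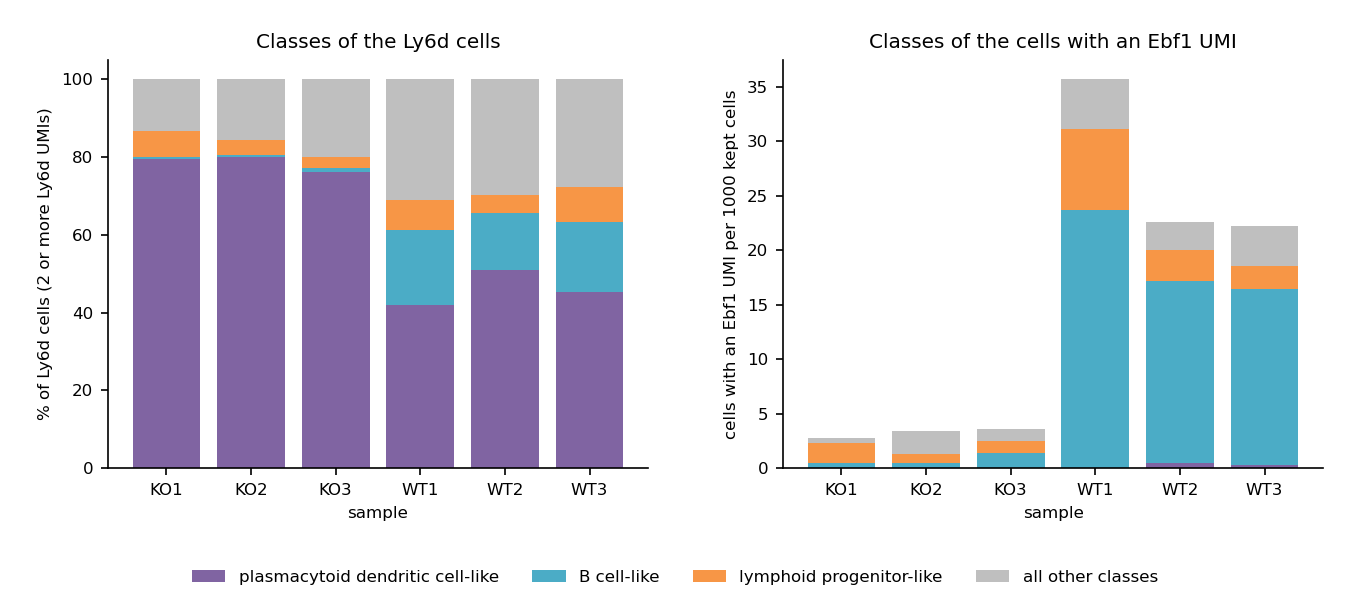
Left: share of Ly6d cells in each class per sample (% of cells with at least 2 Ly6d UMIs). Right: cells with an Ebf1 UMI per 1000 kept cells, by class. Plasmacytoid dendritic cell-like cells (purple) form most of each knockout bar on the left, and on the right the B cell-like part (blue) is small in KO1, KO2 and KO3.

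In Ly6d cells 6 of the 8 members tested were lower in the knockout and none was higher, where 5.14% of 7932 genes were called lower and 8.91% in either direction. The members' median log2 fold change was -3.15, against 0.01 over all genes. Of the 8, 7 did not overlap between genotypes, 6 of them lower and Blnk higher, which held for 27.7% of all genes tested in either direction and 13% with the knockout lower.

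Ebf1 was at 34.6, 15.8 and 65.9 CPM in the knockout and 548, 327 and 357 CPM in the wild type Ly6d cells, which differed by -3.45 ± 0.32 on the log2 scale (edgeR, adjusted p = 1.81e-05). Ebf1 UMIs were found in 2.56%, 2.0% and 1.83% of the knockout Ly6d cells against 23.9%, 16.8% and 21.1% of the wild type Ly6d cells (exact permutation p = 0.1, 0.12 adjusted over 18 such tests). With cells thinned to 2000 UMIs these shares were 1.36%, 1.55% and 0.943% against 15.5%, 10.7% and 7.20%. That step left out the Ly6d cells under 2000 UMIs, 14, 6 and 7 in the knockout and 29, 26 and 71 in the wild type samples. Wild type B cell-like cells had medians of 1592 to 2361 UMIs, so the thinned shares are not a depth correction on the same cells. KO3 had the highest knockout level, and it stayed far below WT2, the lowest wild type sample.

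Pax5 was at 0.93, 1.86 and 2.91 CPM against 15.8, 11.3 and 15.2 CPM (log2 fold change -2.85 ± 0.46, edgeR adjusted p = 0.00116). Pou2af1 was at 0.93, 0 and 1.94 CPM against 25.5, 25.5 and 27.9 CPM (-4.71 ± 0.46, edgeR adjusted p = 3.32e-05), with a UMI in 0 of 200 cells in KO2, which allows a share of cells with a UMI of up to 1.5%. The wild type samples were nearly level with each other for Pou2af1.

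Vpreb3 was at 2.80, 0 and 30.03 CPM against 446, 332 and 344 CPM, or -5.15 ± 0.48 on the log2 scale (edgeR, adjusted p = 1.81e-05). KO3 held most of the knockout Vpreb3 UMIs, and without KO3 the value was -8.01 (edgeR adjusted p = 3.17e-07), a fitted value that rests on few knockout counts. Without KO3 Ebf1 was at -4.05 and Pou2af1 at -5.61 in these cells. Vpreb1 was at 3.74, 4.65 and 18.4 CPM against 37.1, 8.36 and 7.10 CPM and was not called (-0.88 ± 0.68, edgeR adjusted p = 0.482). Igll1, at 1.87, 1.86 and 14.5 CPM against 20.6, 5.01 and 6.60 CPM, had too few counts to test. For both genes KO3 lay above WT2 and WT3, and WT1 was the highest sample.

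Cd79a was at 19.6, 12.1 and 39.7 CPM against 301, 248 and 281 CPM (-3.58 ± 0.24, edgeR adjusted p = 5.96e-07). Cd79b was at 71.9, 71.5 and 79.4 CPM against 294, 277 and 273 CPM, or -1.95 ± 0.12 on the log2 scale (edgeR, adjusted p = 4.34e-07). Blnk went the other way without passing the test, at 180, 117 and 127 CPM against 109, 104 and 101 CPM (0.41 ± 0.14, edgeR adjusted p = 0.10).

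The calls of Ebf1, Cd79a and Cd79b were lost without the B cell-like cells. That class was clustered partly on these genes and held most wild type Ebf1 and Cd79a UMIs. Smaller differences without it were largely set in advance, so the values describe the cells left. In Ly6d cells without that class, a set added after the data were seen, 4 members could be tested: Ebf1 was at -0.24 ± 0.62 (edgeR adjusted p = 0.864), Cd79a at 0.19 ± 0.54 (0.884) and Cd79b at 0.19 ± 0.13 (0.417). Blnk was higher in the knockout by 0.65 ± 0.15 (edgeR adjusted p = 0.0139), where 3.56% of 7806 genes were called higher and 8.51% in either direction. Plasmacytoid dendritic cell-like cells, in which Blnk was at 119 to 199 CPM, were the larger share of the knockout Ly6d cells, and within that class Blnk was at 199, 150 and 158 CPM against 153, 149 and 119 CPM (0.25 ± 0.15, edgeR adjusted p = 0.492).

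The lymphoid progenitor-like class was examined for low expression of the members, although a few of its cells held many of their UMIs. It was named from markers such as Dntt, Flt3, Il7r and Rag1 and held 119, 48 and 91 knockout cells against 91, 119 and 202 from wild type mice, which was 2.42% ± 0.379 and 3.24% ± 0.495 of kept cells. Of 4 members with enough counts to test, 0 were called by edgeR, also 0 at an unadjusted p under 0.05, and 0 by DESeq2. By edgeR 1.07% of 6291 genes were called in either direction. The members' median log2 fold change was -0.39. This class was clustered partly on members. After clustering without the B lineage genes, 7 members could be tested and 0 were called, at a median of -0.68. There 1.95% of 7427 genes were called in either direction.

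Ebf1 in this class was at 56.9, 38.1 and 88.4 CPM in the knockout and 237, 34.7 and 38.8 CPM in the wild type samples. WT1 stood high, and the other wild type samples lay at the level of KO2, so the genotypes overlapped (log2 fold change -0.64 ± 0.50, edgeR adjusted p = 0.798). Without WT1 the sign turned, to 0.76 with an edgeR adjusted p of 0.202. The SE is large, and the data do not show that the levels were alike.

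The Ebf1 reads sat in few cells. Of the knockout progenitor-like cells 8, 2 and 4 had an Ebf1 UMI, and of the wild type ones 18, 12 and 14 did. The shares were 6.72%, 4.17% and 4.40% against 19.8%, 10.1% and 6.93% (exact permutation p = 0.1), at medians of 6487 to 7205 UMIs per knockout and 5180 to 8455 UMIs per wild type cell. T/NK cell-like cells, at medians of 2280 to 3308 UMIs, had an Ebf1 UMI in at most 0.292% of the cells of a sample. Thinned to 2000 UMIs the progenitor-like shares were 3.54%, 4.55% and 3.49% against 16.3%, 2.54% and 5.73% (exact permutation p = 0.4), with WT2 below every knockout sample. One KO3 cell held 36 of the 61 Ebf1 UMIs of that sample.

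The other members were sparse there. Cd79a was at 26.6, 5.45 and 42.0 CPM against 54.8, 10.6 and 10.2 CPM (0.24 ± 0.52, edgeR adjusted p = 0.931), and Blnk at 31.6, 19.1 and 16.0 CPM against 40.4, 19.3 and 31.4 CPM (-0.42 ± 0.33, 0.799). Cd79b was at 43.0, 29.97 and 53.6 CPM against 62.0, 49.1 and 52.6 CPM (-0.36 ± 0.22, 0.713). WT1 was the highest sample for each of these genes.

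Vpreb3 in progenitor-like cells was at 1.26, 0 and 43.5 CPM against 107, 0.96 and 2.77 CPM, and Igll1 at 1.26, 0 and 21.8 CPM against 47.6, 0.96 and 0.92 CPM; KO3 and WT1 held nearly all of it. A single KO3 cell carried 26 of its 30 Vpreb3 UMIs, while the 74 UMIs of WT1 came from 8 cells. Vpreb1 was at 10.1, 2.72 and 24.7 CPM against 72.1, 5.78 and 8.30 CPM, and its copy Vpreb2 at 11.4, 13.6 and 40.6 CPM against 26.0, 6.75 and 6.46 CPM. Pax5 had 2, 0 and 2 UMIs against 4, 0 and 0, and Pou2af1 1, 0 and 0 against 3, 0 and 0. Progenitor-like cells with UMIs of at least 4 of the 7 members other than Blnk and Cd79b numbered 1, 0 and 2 in the knockout and 5, 0 and 0 in the wild type samples.

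The Ebf1-positive progenitor-like cells differed from Ebf1-positive B cell-like cells in the genes found beside Ebf1. Dntt, the polymerase that adds bases at immunoglobulin gene joints, had a UMI in 14 of 14 knockout and 44 of 44 wild type progenitor-like Ebf1 cells, against 5 of 231 wild type B cell-like ones. Flt3, a cytokine receptor of early progenitors, was found in 10 of 14 and 34 of 44, against 2 of 231. Ms4a1, the CD20 gene of later B cells, was found in 0 of 14 and 0 of 44, against 81 of 231. Dntt and Flt3 are markers that helped name the class, so these counts describe it.

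Among those Ebf1-positive progenitor-like cells, Cd79a was present in 6 of 14 from knockout mice against 19 of 44 from wild type mice, and Vpreb3 in 3 of 14 against 9 of 44. Pax5 was found in 3 of 14 and 2 of 44. In wild type B cell-like cells with Ebf1, Vpreb3 was in 228 and Cd79a in 229 of 231.

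Over all kept cells, an Ebf1 UMI was found in 12, 8 and 13 knockout against 86, 96 and 142 wild type cells. Cells with UMIs of at least 2 of the 7 members other than Blnk and Cd79b numbered 8, 4 and 9 in the knockout and 78, 87 and 127 in the wild type samples, or 0.185%, 0.168% and 0.247% against 3.23%, 2.04% and 1.98% of kept cells. The genotypes did not overlap. All 236 wild type B cell-like cells were among them.

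Within the 236 wild type B cell-like cells, 23 had a UMI of Vpreb1 or Igll1 (6, 8 and 9 in WT1, WT2 and WT3) and 213 had neither. Ms4a1 was found in 1 of the 23 (4.35%) and in 85 of the 213 (39.9%). The proliferation genes Mki67 and Top2a were found in 43.5% and 56.5% of the 23 and in 8.92% and 12.7% of the 213. The 23 cells were deeper, with a median of 2816 against 1928 UMIs; thinned to 1000 UMIs, the shares were 4.35% against 34.8% for Ms4a1, 21.7% against 5.31% for Mki67 and 30.4% against 8.70% for Top2a. By level WT1 went the other way, with Mki67 at 62.9 CPM in its 6 cells against 88.6 CPM in its other B cell-like cells and Top2a at 189 against 346 CPM. The split was made after the data were seen, its cells come from 3 mice, and it was not tested.

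Blnk and Cd79b had uses outside the B lineage in these cells. Besides plasmacytoid dendritic cell-like cells, Blnk was at 19.9, 22.8 and 32.3 CPM in knockout and 17.2, 14.9 and 15.4 CPM in wild type dendritic cell-like cells, groups that did not overlap (0.69 ± 0.26, edgeR adjusted p = 0.118). Blnk was near 0 in T/NK cell-like cells, with 1 UMI in 2192 wild type cells and none in 973 knockout cells. Cd79b was at 68.4, 64.5 and 68.4 CPM against 35.4, 54.6 and 49.6 CPM in dendritic cell-like cells (0.50 ± 0.17, edgeR adjusted p = 0.0650). In T/NK cell-like cells Cd79b was at 5.12 to 8.77 CPM. No member passed the test (edgeR) in the other 9 classes that had 20 or more cells per sample, and 1 to 3 members per class could be tested. The share of all genes called was 12.6% in basophil/mast cell-like, 9% in dendritic cell-like, 6.14% in monocyte-like, 2.92% in granulocyte progenitor-like, 2.68% in plasmacytoid dendritic cell-like, 2.66% in T/NK cell-like, 1.84% in early erythroid-like, 1.65% in HSC/MPP-like and 1.29% in megakaryocyte-like cells. At an unadjusted p under 0.05 there were 3 such values, Blnk and Cd79b in dendritic cell-like cells and Cd79b in monocyte-like cells, all higher in the knockout.

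Whether the genotype difference itself was larger in Ly6d cells than in all other kept cells was tested by limma, taking per sample the log2 level in one set less that in the other. Cd79b passed: its log2 fold change was lower in the Ly6d cells than outside by 2.03 ± 0.17 (SE), adjusted p = 0.00794 by limma, where 2.29% of 7918 genes were called. Outside the Ly6d set Cd79b was at 36.0, 35.3 and 40.9 CPM in the knockout and 30.7, 38.1 and 34.1 CPM in the wild type samples, which overlapped (0.08 ± 0.09, edgeR adjusted p = 0.655). The limma adjusted p was 0.0618 without KO1 and 0.0828 without WT3.

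For the other members this difference did not pass, with limma adjusted p of 0.869 for Ebf1 (-0.13 ± 0.36), 0.419 for Pou2af1 (-0.50 ± 0.33) and 0.207 for Blnk (1.04 ± 0.42). Vpreb3 was at -2.71 ± 0.76 with a limma adjusted p of 0.104, which was 0.0168 without KO3. Outside the Ly6d set 6 of 8 members tested were lower in the knockout, where 6.93% of 12518 genes were called lower and 10.2% in either direction: Ebf1 was at -3.25 ± 0.26 (edgeR adjusted p = 0.000131) and Vpreb3 at -3.60 ± 0.36 (0.000342). That set holds the B cell-like cells with fewer than 2 Ly6d UMIs.

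Most of the other B lineage genes tested were lower in the knockout Ly6d cells. Of 28 listed, 21 were tested, 13 were lower and 3 higher in the knockout, where 8.91% of all genes were called in either direction. The median log2 fold change was -0.84, against 0.01 over all genes. By the smallest p, the named ones were Cnn3 (-4.33), Ms4a1 (-4.16), the light chain genes Igkc (-2.88) and Iglc2 (-4.88), the heat-stable antigen Cd24a (-1.13), Ralgps2 (-1.43) and Fcmr (-2.33), with edgeR adjusted p from 2.57e-07 for Cnn3 to 0.00188 for Fcmr. Without the B cell-like class 2 of 16 tested were lower and 5 higher, at a median of 0.17, where 8.51% of all genes were called in either direction. Over all kept cells 13 of 26 tested were lower and 0 higher, with a median of -1.06, where 10.9% of all genes were called. Some named genes were also lower outside the B lineage. Cnn3 was at 0.95, 0 and 1.90 CPM against 45.1, 54.6 and 59.3 CPM in dendritic cell-like cells. In early erythroid-like cells Cd24a was at 20.2 to 29.6 against 89.8 to 111 CPM. Ralgps2 was at 9.40 to 22.8 against 37.1 to 39.8 CPM there. In T/NK cell-like cells Igkc was at 160 to 184 against 214 to 664 CPM, while Cd24a, Ralgps2 and Iglc2 overlapped.

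Early lymphoid genes went both ways in Ly6d cells. Of 20 listed, 19 were tested, 3 were lower and 3 higher, with a median of -0.06, where 8.91% of all genes were called in either direction. Without the B cell-like class 18 were tested, 2 were lower and 2 higher, where 8.51% of all genes were called. The values that follow include that class. Tcf3 (-0.68), a factor upstream of Ebf1, the cytokine receptor gene Il7r (-0.87) and Dntt (-0.67) were lower, with edgeR adjusted p of 0.00550, 0.00919 and 0.0303. The chemokine receptor gene Ccr9 (1.01), Id3 (0.73) and Bcl11a (0.37) were higher, with edgeR adjusted p of 0.000361, 0.0104 and 0.0447; Ccr9 is also a marker of plasmacytoid dendritic cells. Mef2c at 0.28 and Rag1 at -1.10 did not pass (edgeR adjusted p 0.164 and 0.212). In the progenitor-like class 2 of 17 early lymphoid genes and 2 of 11 other B lineage genes tested were lower and 0 higher in each list, where 1.07% of all genes in that class were called in either direction.

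Across 33 clusters of kept cells, pooled over samples, the non-member genes most like each member were taken by the Pearson correlation of log2(CPM + 1). Members were left out of this ranking, and some were closer to each other, such as Cd79a to Pax5 (0.921) and Vpreb1 to Igll1 (0.890). These points share libraries and the correlations describe them only. Ebf1 was most like Rag1 (r = 0.962), Gfra1 (0.956) and Rsph9 (0.907), and Vpreb3 like Gfra1 (0.955) and Rag1 (0.929). Cd79a was most like Gfra1 (0.901) and Rag1 (0.887), and Pax5 like 1700027J07Rik (0.973) and Igkv1-35 (0.967). Pou2af1 was most like Cpm (0.973), Cldn10 (0.931) and Igkv1-35 (0.914).

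Among non-member genes the pre-B receptor pair had each other's neighbours. Vpreb1 was most like Uchl1 (0.875), Gm12057 (0.87) and Rag1 (0.869), and Igll1 like Gm12057 (0.891), Rag1 (0.878) and Gfra1 (0.869). Blnk was most like Epha2 (0.952), Ly6d (0.933) and Lynx1 (0.92). Cd79b had the weakest likeness, to Smim14 (0.821), Sec63 (0.794) and Fcmr (0.768).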

How the data were processed

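The authors deposited raw UMI counts, as whole numbers with cells in rows and genes in columns, for each sample, made from 10x Chromium 3' version 2 libraries per the labels' protocols. The aligner, counter and genome build were not given in the sources used here. Genes absent from a table were set to 0 and repeated symbols summed. Cells were kept from 500 genes upward and up to 20% mitochondrial counts, and simulated doublets were removed at 0.8% per 1000 cells (47 to 367 cells per sample). Kept cells held 15557805 to 34269704 UMIs per sample. Cells were clustered without integration (2000 variable genes, 30 principal components, 15 neighbours, Leiden resolution 1) and named from lists of cell type markers.

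Counts were summed per sample and tested with edgeR 4.0.16 (quasi-likelihood, TMM, low-count filter, Benjamini-Hochberg adjustment over all genes at 0.05), on R 4.3.3 with limma 3.58.1 and DESeq2 1.42.0, and Python 3.11.15 with scikit-learn 1.9.0, igraph 0.11.9 and leidenalg 0.10.2, seed 1. The edgeR step was tested on simulated data. Shares used a 2-sided exact permutation test over 20 assignments. The floor for a count of 0 is 3 counts, and floors cover counting error only. The series' text counts 3 mice per genotype, so the p-values measure the spread between mice.

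The genes named are the 9 members, and up to 8 genes of each of the lists of other B lineage and early lymphoid genes by the smallest p in Ly6d cells. The 3 non-member genes most like each member (at least 20 CPM in a cluster) are named too. A gene that these rules also name is not reported here. The members and lists were chosen with earlier results of these data known. The deposited cluster numbers, which carry no names, enter no value given here.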

Additional observations from a re-analysis of the deposited data

Results flagged for a closer look

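The genotype difference of Cd79b was not the same in Ly6d cells as in the other kept cells: the log2 fold change, knockout against wild type, differed by -2.03 ± 0.17 (SE) between the sets, with an adjusted p of 0.00794 by limma over 7918 genes. Cd79b was lower in every knockout sample within the Ly6d cells, at 71.5 to 79.4 CPM against 273 to 294 CPM, and overlapped outside them. B cell-like cells were 0.614% of the knockout and 17.3% of the wild type Ly6d cells. Without that class Cd79b in Ly6d cells was at 0.19 ± 0.13 (edgeR adjusted p = 0.417). In the cells outside the Ly6d set it was at 0.08 ± 0.09, but these still held B cell-like cells with fewer than 2 Ly6d UMIs, so the sets are not alike. Without KO1 or WT3 the adjusted p by limma was 0.0618 or 0.0828.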

How the results depend on the processing

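Of the values of single members under other settings, 116 of 133 in all kept cells, 141 of 154 in Ly6d cells and 26 of 32 in the progenitor-like class kept direction and side of the threshold. No paired analysis was possible because the labels give the mice no shared numbers. The count of genes called was 768 to 1466 in all kept cells, 345 to 628 in Ly6d cells and 43 to 82 in the progenitor-like class when 1 library was left out, and 2 to 302 for the difference between Ly6d and other cells. With the title prefix as a covariate 767 genes were called in all kept cells and 282 in Ly6d cells, and in the samples with the prefix XA alone 560 and 252; both fits set the 3 knockout samples against WT1 alone, which is assumed to vary like the other samples. In Ly6d cells DESeq2 called 436 genes, and 77 and 18 were called without cells with a plasmacytoid dendritic cell marker and without both kinds of marked cell, which leave fewer cells. In the progenitor-like class DESeq2 called 38 genes, and 145 were called after clustering without B lineage genes.

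Signs turned as follows, and the cause was not tested. Without the B cell-like class, chosen after seeing the data like the runs that leave 1 library out of the Ly6d difference, Cd79b was 0.18 in all kept cells, and Cd79a was 0.19 and Cd79b 0.19 in Ly6d cells. Blnk in Ly6d cells was -0.0021 at a minimum of 1 Ly6d UMI, -1.01 without plasmacytoid dendritic cell marker cells and -0.10 without both kinds. In the progenitor-like class Cd79a was -0.086 by DESeq2 and -0.061 after the other clustering, and -0.28 to 1.36 with 1 library left out; Ebf1 was -1.10 to 0.76 there. In the Ly6d difference, Ebf1 was -0.36 to 0.13 and Vpreb1 -0.21 to 0.83, with the other sign also at 0.06 and -0.16. The share of cells with a Blnk UMI differed by -0.999 to 0.161 percentage points in all kept cells, and with Cd79b by 0.50 in Ly6d cells thinned to 3000 UMIs, a step that leaves out most B cell-like cells. Cd79b was found in more knockout than wild type cells at full depth (22.8% against 17.3%) while its CPM was lower, and no order is read from that share.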
